A study of Mus musculus with 3 samples.

Results

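Matricellular proteins are secreted into the extracellular matrix, where they bind cells, collagen and growth factors rather than forming a load-bearing fibre. The genes described here are 9 of the 32285 genes counted, taken by symbol: *Postn* (periostin), *Tnc* (tenascin C), *Tnn* (tenascin N, also called tenascin W), *Thbs1* and *Thbs2* (thrombospondins), *Spp1* (osteopontin), *Sparc*, *Fn1* (fibronectin) and *Vcan* (versican). The study followed skin wound healing and scarring in mice, and these data are its spatial part, in which RNA was captured from tissue sections on slides of barcoded spots. Each captured molecule was counted once by its unique molecular identifier (UMI). The groups were skin wounds of C57BL/6J mice, for which the labels name no altered allele and no treatment, on Day 3, Day 7 and Day 14 after injury. Per the study's methods the mice were aged 7 to 12 weeks, full-thickness excisional wounds were made with a 4-mm punch in shaved back skin, and tissue taken with a 6-mm punch was frozen. Each day had 1 section, there was no unwounded section, and no test between days was possible.

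Periostin and the tenascins are laid down by fibroblasts of healing tissue and are scarce in resting skin. Thrombospondin 1 is also released by platelets and leukocytes, whereas thrombospondin 2 is a fibroblast product that restrains vessel growth. Osteopontin is made by macrophages and other leukocytes in early wounds, by wound fibroblasts per the study, and by bone cells in the skeleton. SPARC binds collagen and helps it assemble, fibronectin forms the provisional matrix on which cells migrate, and versican is a large hydrated proteoglycan.

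The study marked a region of interest on each slide, and the values below come from these marked spots unless stated otherwise. Days 3, 7 and 14 had 664, 549 and 697 marked spots with 1772259, 4442962 and 4611723 UMIs. Unmarked spots, which can hold other tissue or free RNA of the slide, had 49.0%, 59.2% and 50.6% of all UMIs. All 4992 spot barcodes were shared by the slides, because they carry the same spot array. Levels are given as CPM, the UMIs of a gene per 1000000 UMIs of all genes, with 95% intervals for the counting of molecules, which leave out how animals differ. Markers of 11 kinds of tissue or cell were summed as lists, and a lower level of a list can mean fewer of those cells or less RNA in each, which cannot be told apart. The fibroblast list (8 of 8 markers found on each day) was at 50690.1, 70484 and 36924 CPM in the order of the days, and the muscle list (7 of 7 found) at 32865, 43876 and 50327 CPM.

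All 9 genes are protein coding. In the GENCODE M21 annotation of GRCm38, *Postn* lies on chromosome 3 from 54361109 to 54391037, *Tnc* on chromosome 4 from 63959785 to 64047015, *Tnn* on chromosome 1 from 160085029 to 160153580, *Thbs1* on chromosome 2 from 118111876 to 118127133, and *Thbs2* on chromosome 17 from 14665500 to 14694235. *Spp1* lies on chromosome 5 from 104435118 to 104441050, *Sparc* on chromosome 11 from 55394500 to 55423183, *Fn1* on chromosome 1 from 71585520 to 71653200, and *Vcan* on chromosome 13 from 89655312 to 89742509. *Postn*, *Thbs1* and *Spp1* are on the plus strand and the other 6 genes on the minus strand.

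Promoter windows of 7 of the 9 genes were found in a RefSeq table (GRCm38.p6), with no entry for *Thbs1* and *Fn1*. The 150 bases before the transcript start are shown for the 3 genes with the steepest increase from Day 3 to Day 7 and for *Spp1*, which went the other way. Where a gene had 2 entries, the one nearer to the gene's annotated 5′ end was taken. Each is written 5′ to 3′ on the gene's strand, at chr3:54360957-54361106 for *Postn*, chr4:64047016-64047165 for *Tnc*, chr1:160153576-160153725 for *Tnn* and chr5:104434961-104435110 for *Spp1*. Capitals mark matches, on either strand, to TATAAA (the TATA box), TGANTCA (AP-1), GGAATG (TEAD), ACCACA (Runt) and CAGACA (SMAD).
Postn: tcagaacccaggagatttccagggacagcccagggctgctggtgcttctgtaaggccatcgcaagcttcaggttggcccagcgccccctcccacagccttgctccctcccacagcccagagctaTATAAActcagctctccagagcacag
Tnc: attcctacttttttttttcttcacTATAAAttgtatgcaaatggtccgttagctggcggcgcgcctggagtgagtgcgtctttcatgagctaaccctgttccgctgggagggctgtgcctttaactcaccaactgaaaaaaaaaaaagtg
Tnn: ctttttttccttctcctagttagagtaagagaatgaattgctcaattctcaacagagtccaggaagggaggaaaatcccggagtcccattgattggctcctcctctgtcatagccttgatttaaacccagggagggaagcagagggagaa
Spp1: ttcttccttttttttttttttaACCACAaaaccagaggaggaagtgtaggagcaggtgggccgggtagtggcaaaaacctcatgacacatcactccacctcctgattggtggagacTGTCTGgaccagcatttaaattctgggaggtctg
None of these motifs was found in all of *Postn*, *Tnc* and *Tnn*. TATAAA began 26 bases before the start in *Postn*, the usual place of a TATA box, and 126 bases before it in *Tnc*, and was not found in the 300-base window of *Tnn*. Over that window, from 250 bases before the start to 50 after it, TATAAA was in 4 of the 7 members with an entry (13.6% of all 32851 promoters), CAGACA in 4 (21%), ACCACA in 2 (16.8%), GGAATG in 1 (14.7%) and TGANTCA in 0 (7.81%). The ACCACA of *Spp1* began 128 bases before its start. A match describes letters only.

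Periostin and both tenascins formed a sharp peak on Day 7. *Postn* had 425, 16405 and 2537 UMIs in the sections of Days 3, 7 and 14, that is 239.8, 3692 and 550.1 CPM. *Tnc* had 257, 5207 and 729 UMIs, that is 145, 1172 and 158 CPM. *Tnn* was close to absent on Day 3, with 9 UMIs (5.08 CPM, 2.32 to 9.64), then reached 1416 UMIs (319 CPM) on Day 7 and was at 109 UMIs (23.6 CPM) on Day 14. The rise from Day 3 to Day 7 was 15.4-fold for *Postn* (95% interval 14.0 to 17.0), 8.08-fold for *Tnc* (7.13 to 9.20) and 62.8-fold for *Tnn* (33.0 to 138), the last resting on the 9 UMIs of Day 3. With the mean of spot CPM the log2 ratio of *Tnn* was 7.28 in place of 5.97, and for Day 14 over Day 3 it was 3.82 in place of 2.22. By Day 14 *Postn* had fallen 6.71-fold from its peak (6.44 to 7.00), *Tnc* 7.41-fold (6.86 to 8.02) and *Tnn* 13.5-fold (11.1 to 16.5). The return was not equally complete. *Tnc* on Day 14 was 1.09 times its Day 3 level with an interval that spanned no change (0.944 to 1.26), whereas *Postn* stayed 2.29-fold (2.07 to 2.55) and *Tnn* 4.65-fold (2.36 to 10.5) above Day 3.

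Both thrombospondins changed, in opposite directions. *Thbs1* was highest on Day 3, at 789 UMIs (445 CPM, 415 to 477), and was at 221 UMIs (49.7 CPM) on Day 7 and 143 UMIs (31.0 CPM) on Day 14. It fell 8.95-fold from Day 3 to Day 7 (7.70 to 10.4), and Day 14 lay a further 1.60-fold lower (1.29 to 1.99). *Thbs2* followed the tenascins, with 321, 3085 and 801 UMIs, that is 181, 694 and 174 CPM. Its rise was 3.83-fold (3.42 to 4.31) and its fall 4.0-fold (3.70 to 4.33), so that Day 14 and Day 3 were not distinguishable at this depth (0.959-fold, 0.841 to 1.10), although the mean of spot CPM put Day 14 higher (log2 ratio 0.70). Neutrophil and macrophage markers moved with *Thbs1*: the neutrophil list (7 of 7 found on Day 3, 6 on Day 7 with *Retnlg* at 0) was at 1890.2, 139.997 and 103 CPM on the 3 days, and the macrophage list (8 of 8 found) at 3787, 2309 and 927 CPM. The platelet list was low throughout, at 21.4, 13.1 and 19.7 CPM. It had 38 UMIs on Day 3 (*Gp6* at 0), 58 on Day 7 (*Ppbp*, *Gp9* and *Gp6* at 0) and 91 on Day 14 (*Gp6* at 0). The part of these cells in the level of *Thbs1* was not tested.

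*Spp1* was the other gene with its highest level on Day 3. It stood at 809 UMIs on Day 3 (456 CPM, 426 to 489), 1172 UMIs on Day 7 (264 CPM, 249 to 279) and 881 UMIs on Day 14 (191 CPM, 179 to 204). The Day 7 level was 0.578 times that of Day 3 (0.528 to 0.633), short of the 2-fold mark, but with the mean of spot CPM, with all spots of the slide and with the fibroblast list as the denominator the log2 ratio was -1.31, -1.86 and -1.27, past it. Day 14 was 2.39-fold lower than Day 3 (2.17 to 2.63). Its decline was therefore shallower than that of *Thbs1*, and when all spots of the slide were counted the step from Day 7 to Day 14 turned upward, as described with the unmarked spots below.

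*Sparc*, *Fn1* and *Vcan* differed less between Day 3 and Day 7 than the periostin and tenascin genes did. *Sparc* stood at 5365, 9172 and 3741 CPM, being 1.71-fold higher on Day 7 than on Day 3 (1.67 to 1.75) and then falling 2.45-fold (2.41 to 2.50). *Fn1* went from 459 to 1029 CPM by Day 7, a rise of 2.24-fold (2.08 to 2.42), and then fell 3.74-fold (3.51 to 3.98) to 275 CPM, which was 1.67-fold below Day 3 (1.52 to 1.82). *Vcan* was the one member whose Day 14 level was not separated from that of Day 7: its CPM were 74.5, 119 and 110.2, and the interval of Day 14 over Day 7 spanned no change (0.923-fold, 0.816 to 1.05).

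**Figure D1:**
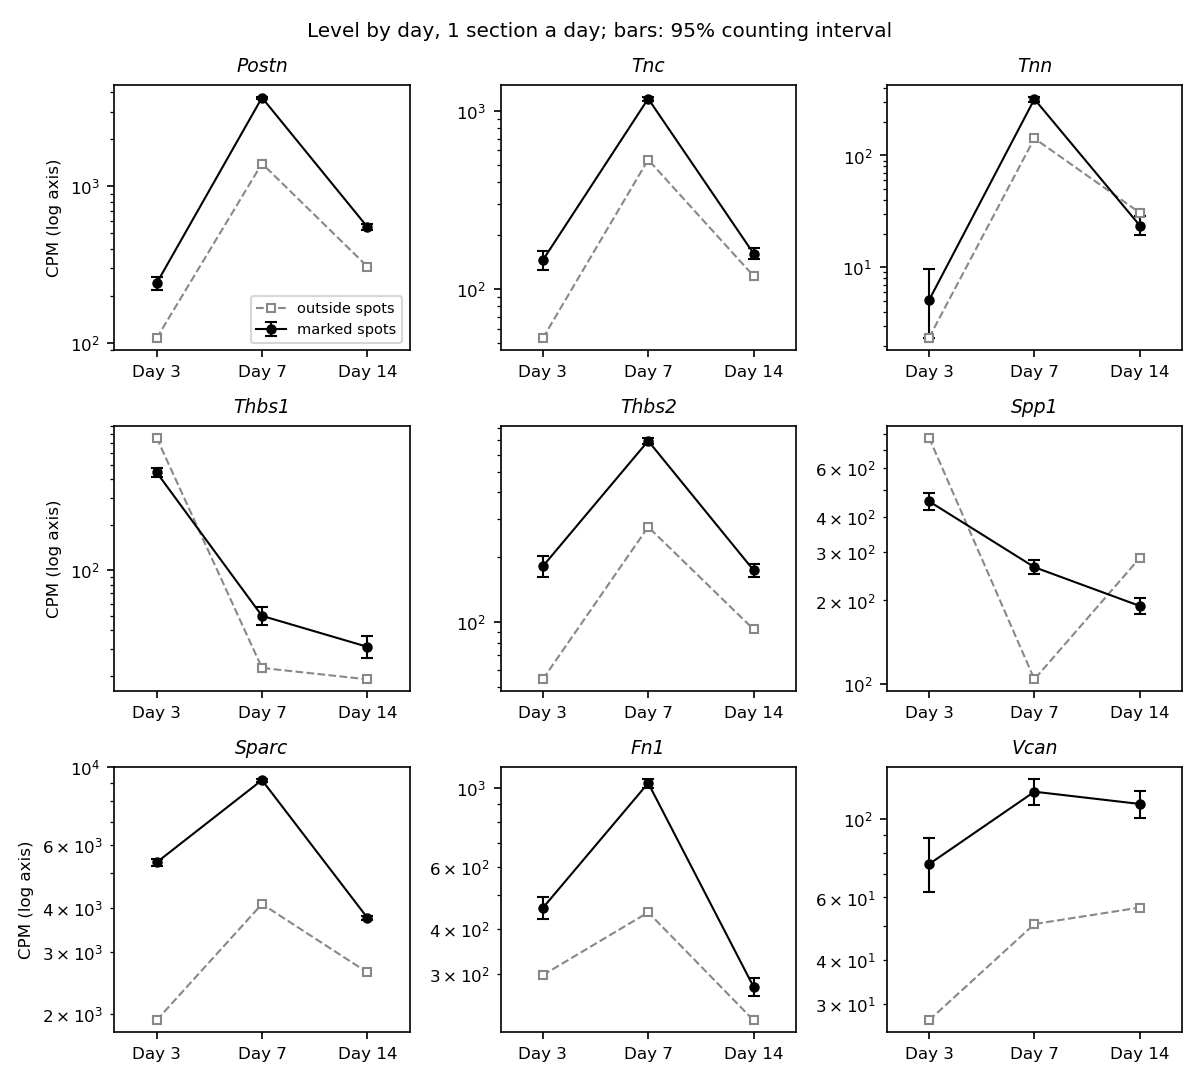
CPM on a log axis for each of the 9 genes by day, in marked spots (filled circles with 95% counting intervals, 1 section a day) and in all other spots of the slide (open squares). *Postn*, *Tnc*, *Tnn*, *Thbs2*, *Sparc*, *Fn1* and *Vcan* are highest on Day 7 in the marked spots, and *Thbs1* and *Spp1* on Day 3.

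Counted together, 7 of the 9 genes were highest on Day 7, against 26.7% of the 12133 genes that had 50 or more UMIs in all. There were 2 members highest on Day 3 (28% of all genes) and 0 on Day 14 (45.3% of all genes). From Day 3 to Day 7, 5 of 9 members were at least 2-fold higher (8.04% of 10541 genes), namely *Postn*, *Tnc*, *Tnn*, *Thbs2* and *Fn1*, and 1 was at least 2-fold lower (6.49%), *Thbs1*. From Day 7 to Day 14, 6 of 9 were at least 2-fold lower (7.34% of 11746 genes), namely those 5 and *Sparc*, and 0 were at least 2-fold higher (10.9%). For Day 7 over Day 3, *Fn1* was below 2-fold with the mean of spot CPM (log2 ratio 0.98) and with all spots of the slide (0.85). *Sparc* was past 2-fold there with the mean of spot CPM (1.09) and not with all spots (0.75). Day 14 over Day 3 had 2 members higher, *Postn* and *Tnn* (14.4% of 10955 genes), and 2 lower, *Thbs1* and *Spp1* (6.83%). The median log2 ratio of the members in these comparisons was 1.17, -1.90 and -0.06, beside 0.04, 0.13 and 0.18 over all genes counted.

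The rise set the genes in an order that counting error mostly resolved. On the log2 scale, Day 7 over Day 3 ran from *Tnn* at 5.97 through *Postn* at 3.94, *Tnc* at 3.01, *Thbs2* at 1.94, *Fn1* at 1.17, *Sparc* at 0.77 and *Vcan* at 0.68 to *Spp1* at -0.79 and *Thbs1* at -3.16. Among neighbours in that order, the intervals overlapped for *Sparc* (0.74 to 0.81) and *Vcan* (0.40 to 0.97) alone. The fall from Day 7 to Day 14 kept nearly the same sequence at its steep end, with *Tnn* at -3.75, *Tnc* at -2.89, *Postn* at -2.75, *Thbs2* at -2.0, *Fn1* at -1.90 and *Sparc* at -1.29. Here *Tnc* and *Postn* were not separated by their intervals, nor were *Thbs2* and *Fn1*. The fibroblast list was itself highest on Day 7. With its UMIs in place of all UMIs as the denominator, an alternative chosen after seeing the data, *Postn*, *Tnc*, *Tnn* and *Thbs2* were still at least 2-fold higher on Day 7 than on Day 3 and at least 2-fold lower on Day 14 than on Day 7. *Fn1* was then at 0.69 and -0.97 and *Sparc* at 0.30 and -0.36 on the log2 scale.

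Close relatives of these genes were counted from a list of 14. Of the 7 with enough UMIs on Day 3 and Day 7, 2 were at least 2-fold higher on Day 7 (8.04% of all genes). At least 2-fold lower was 1 (6.49% of all genes), and the median log2 ratio was 0.29. *Thbs4*, a thrombospondin of tendon and muscle matrix, rose 9.81-fold (5.25 to 20.7) from 5.64 to 55.4 CPM, resting on 10 UMIs on Day 3. *Thbs3* rose 3.39-fold from 33.9 to 115 CPM. *Tgfbi*, the closest relative of periostin, fell from 475 to 235 CPM (0.496-fold), the reverse of *Postn*, and *Tnxb*, the tenascin of resting dermis, was at 146 CPM on Day 3 and 74.5 CPM on Day 7 (0.510-fold), the reverse of *Tnc* and *Tnn*. From Day 7 to Day 14, 3 of 10 relatives were at least 2-fold higher (10.9% of all genes) and 2 lower (7.34%). The 3 were chosen for naming after their values were seen: *Comp* went from 1 to 69 UMIs, *Acan* from 25 to 55 and *Ibsp*, bone sialoprotein, from 14 to 219. On Day 14 they were at 15.0, 11.9 and 47.5 CPM in the marked spots. In the patch of 7 unmarked spots described below they were at 156, 203 and 4307 CPM. How much of their marked RNA came from there was not tested.

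Receptors for these proteins were counted in the same way. Of 14 integrin, syndecan and other receptor genes, 12 had enough UMIs on Day 3 and Day 7, and 0 of them were at least 2-fold higher and 0 at least 2-fold lower on Day 7 (8.04% and 6.49% of all genes), with a median log2 ratio of -0.03. *Itgb5*, an integrin chain that binds vitronectin and osteopontin, was at 117 CPM on Day 3 and 226 CPM on Day 7 (1.94-fold), and *Itgb3* at 18.1 and 26.6 CPM (1.47-fold). *Cd44*, a receptor for hyaluronan and osteopontin, was at 239.8 and 137 CPM (0.572-fold), and *Sdc4* at 183 and 124 CPM (0.676-fold). From Day 7 to Day 14, 4 of 13 receptors were at least 2-fold lower (7.34% of all genes) and 2 at least 2-fold higher (10.9%). Their median log2 ratio was -0.85. Among those chosen for naming after their values were seen, *Cd36*, a thrombospondin receptor, fell from 244 to 71.8 CPM, *Itga5*, the fibronectin receptor chain, fell from 96.6 to 35.3 CPM, and *Sdc4* rose from 124 to 350.2 CPM.

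To compare how widely each gene was found, every spot was thinned to 1000 UMIs, which left out 238, 24 and 18 shallower spots in the order of the days. *Postn* had a UMI in 16.9% of the 426 Day 3 spots (exact binomial interval 13.5 to 20.8), 85.1% of 525 on Day 7 (81.8 to 88.1) and 37.4% of 679 on Day 14 (33.8 to 41.2). *Tnc* was found in 9.86%, 62.5% and 14.1% of spots on those days, and *Tnn* in 0.235% (1 spot), 23.8% and 3.53%. *Thbs1* went the other way, from 26.3% to 3.62% and 2.80%. Osteopontin narrowed less, from 27.7% to 19.8% and 16.3%. For *Vcan* the shares were 7.51%, 9.14% and 9.87%, with intervals that overlapped on all days. Without thinning, *Postn* was in 26.7%, 94.5% and 73.2% of the marked spots.

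Muscle-rich spots, those with at least 5% of UMIs from the muscle list, were taken as a reference for spots of other tissue. They made up 258, 313 and 348 of the marked spots, and many were mixed: the largest Day 7 region (264 spots) had the muscle list at 50179 CPM and the fibroblast list at 64637 CPM. Their median depth was 1080.5, 4200 and 3410.5 UMIs in the order of the days, against 1513, 6687 and 4827 for all marked spots. On Day 3 *Postn* was in 4.35% of the muscle-rich spots, *Thbs1* in 4.35% and *Spp1* in 7.97%, and *Fn1* in 21.7% and *Sparc* in 69.6%. On Day 7 *Postn* was in 79.7% of muscle-rich spots (74.7 to 84.2), *Tnc* in 58.4%, *Tnn* in 19.9% and *Sparc* in 99%. Whether the Day 7 RNA in these spots was made there was not tested. With muscle-rich spots left out, the numbers of members past 2-fold stayed at 5 and 1 for Day 7 over Day 3 and at 0 and 6 for Day 14 over Day 7.

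**Figure D2:**
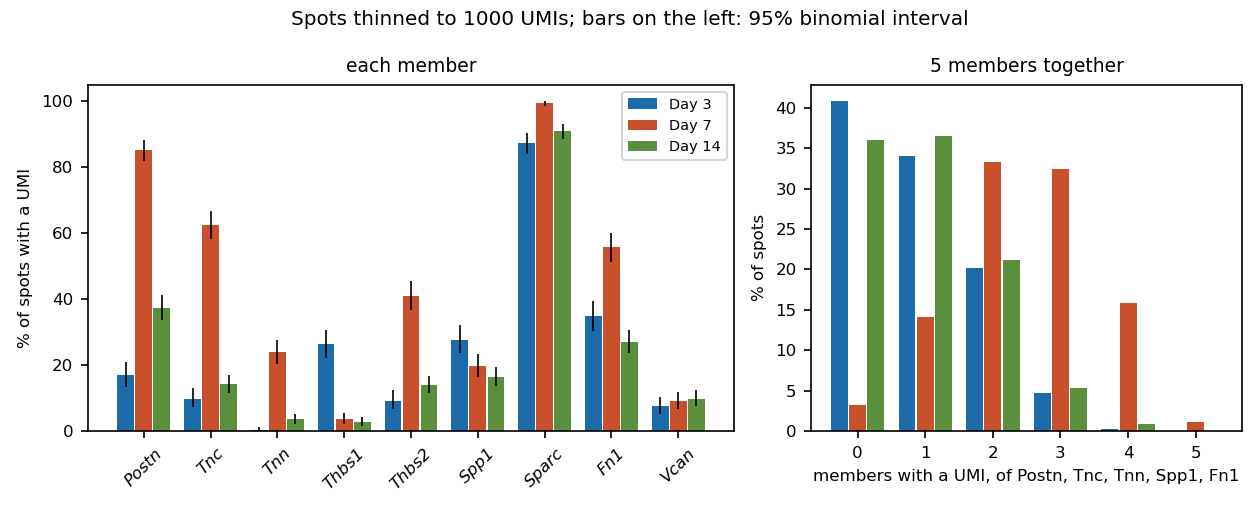
Left, percent of spots with at least 1 UMI of each gene after thinning to 1000 UMIs (426, 525 and 679 spots), bars with 95% binomial intervals. Right, percent of those spots by how many of *Postn*, *Tnc*, *Tnn*, *Spp1* and *Fn1* they held, where 3.24% of Day 7 spots held 0 of the 5 against 40.8% on Day 3 and 36.1% on Day 14.

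Members were compared between the granulation region of each section and the rest. This was the region, of 5 found by clustering spots without the members, their relatives, their receptors or the granulation list, that had the highest level of 10 granulation genes such as *Acta2*, *Cthrc1* and *Lrrc15*. It held 99 spots on Day 3, led by *Cxcl5*, *Timp1* and *Hmox1*, and 104 spots on Day 7, led by *Isg15*, *Cmtm7* and *Rpl35*. On Day 14 it held 251 spots, with *Mmp14* and *Ccn3* among its leading genes. *Mmp14* is itself 1 of the 10 granulation genes by which the region was chosen. The region is named for that list alone. On Day 3 its fibroblast and myofibroblast lists were at 33583 and 1437 CPM, below the 50690 and 2076 CPM of the whole section. Its neutrophil and macrophage lists were at 3281 and 5818 CPM, above the section's 1890 and 3787 CPM. On Day 7 its myofibroblast list was at 3337 CPM against 3335 CPM. At least 2-fold higher in the region than in the rest were 6 of 9 members on Day 3 (11.6% of 3083 genes), 3 on Day 7 (1.82% of 6705 genes) and 5 on Day 14 (1.86% of 7414 genes). The median log2 ratio of the members was 1.37, 0.61 and 1.01, beside 0.15, 0.01 and -0.05 over all genes. Spots of a section are not replicates, and genes that share a tissue with those clustered will tend to follow the regions. The granulation genes that chose the region also favour some members. The study names *Postn* and *Vcan* for the same fibroblast subcluster as *Plod2*, *Loxl2* and *Col5a3* of that list. It names *Thbs2* for another, with *Acta2*, *Lrrc15* and *Mmp14*. The shares of all genes do not allow for this.

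The genes that led in this region were not the same on each day. On Day 3 *Tnc* stood out most, with 363 CPM inside and 65.4 CPM outside the region (log2 ratio 2.47, 2.09 to 2.87), and 66.9% of its UMIs lay in the region's 26.7% of all UMIs. *Vcan* came next at 177 and 37.0 CPM (2.26, 1.74 to 2.81). *Thbs1* (1.42), *Thbs2* (1.43), *Postn* (1.37) and *Spp1* (1.3) were also past 2-fold, and *Fn1* was not (0.63). *Sparc* alone was lower inside, at 4080 CPM against 5833 CPM (-0.52, -0.59 to -0.44), and *Tnn* had 2 UMIs there, too few to place. By Day 7 *Postn* led, with 5819 CPM inside and 2423 CPM outside (1.26, 1.22 to 1.31), followed by *Fn1* (1.09) and *Thbs2* (1.06), while *Tnc* was spread more evenly at 1457 and 1002 CPM (0.54, 0.46 to 0.62). On Day 14 *Thbs2* (1.38), *Postn* (1.37), *Tnn* (1.14, from 47 UMIs inside), *Sparc* (1.03) and *Fn1* (1.01) were past 2-fold, and *Spp1* was the least enriched at 0.45 (0.24 to 0.66). With 6 regions the same number of members passed, with *Thbs2* at 2.15 and *Postn* at 2.05. With 4 regions in place of 5 the Day 3 count was 3, and *Postn*, *Tnc* and *Thbs2* were lower in the region chosen (-0.30, -0.58 and -0.67), so the Day 3 contrast of those genes rests on how that section was divided.

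**Figure D3:**
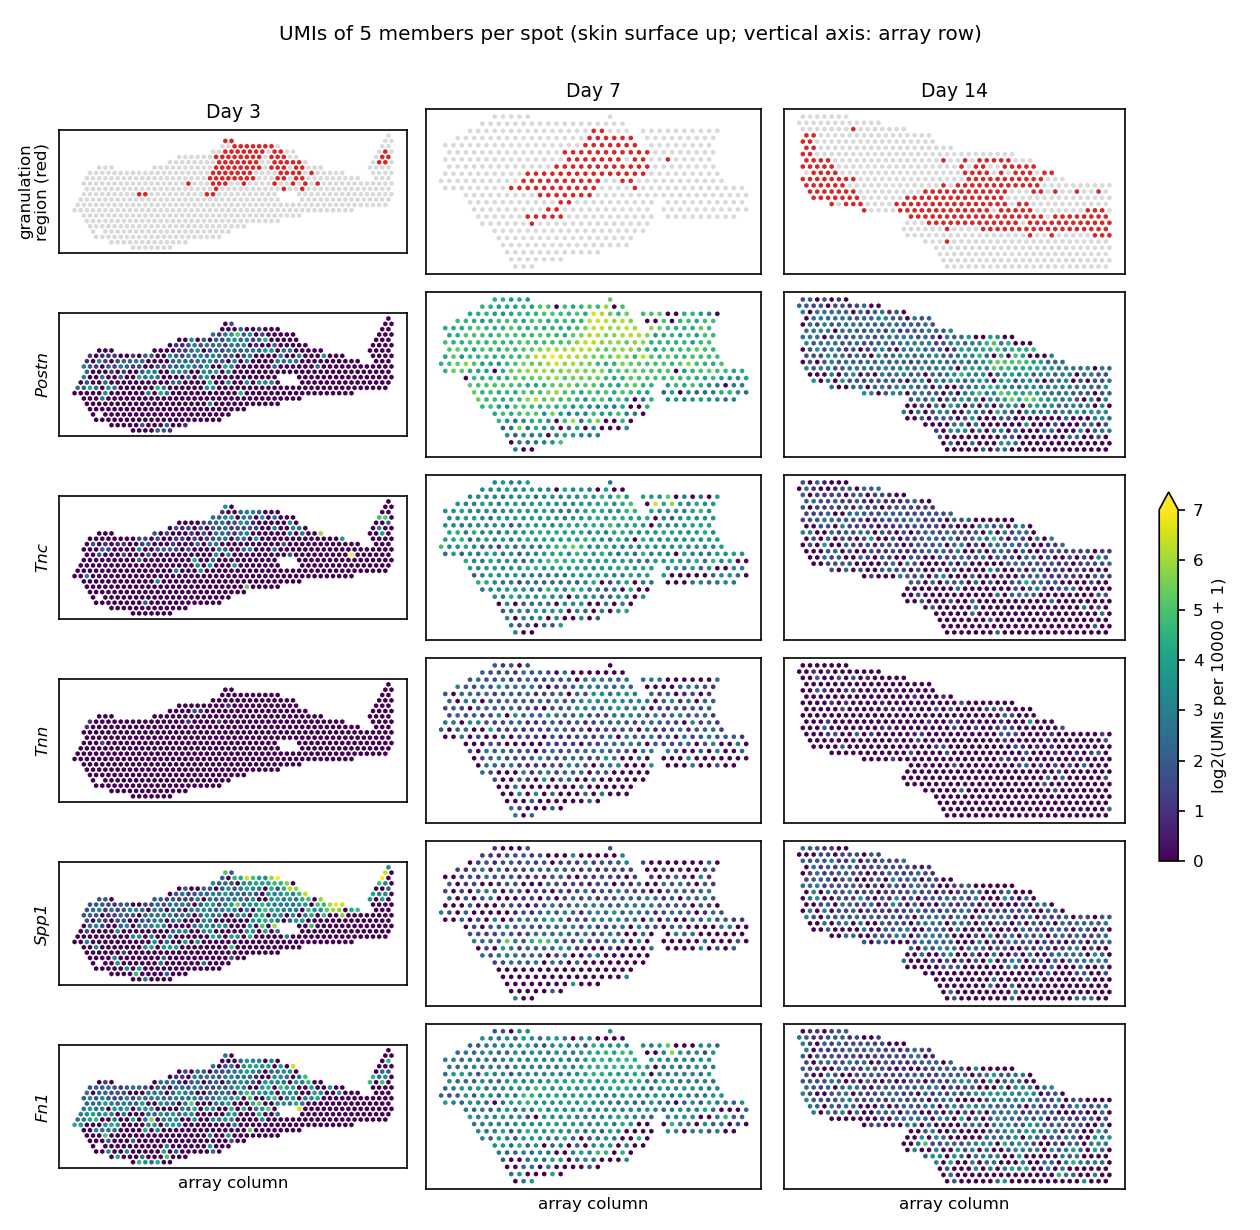
Marked spots of each section with the skin surface up, by array column (horizontal) and array row (vertical): the top row shows the granulation region in red, the other rows log2 of UMIs per 10000 plus 1 for 5 genes on 1 shared colour scale. On Day 7 *Postn* is brightest along the granulation region, and on Day 3 *Spp1* is brightest at the surface edge.

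**Figure D4:**
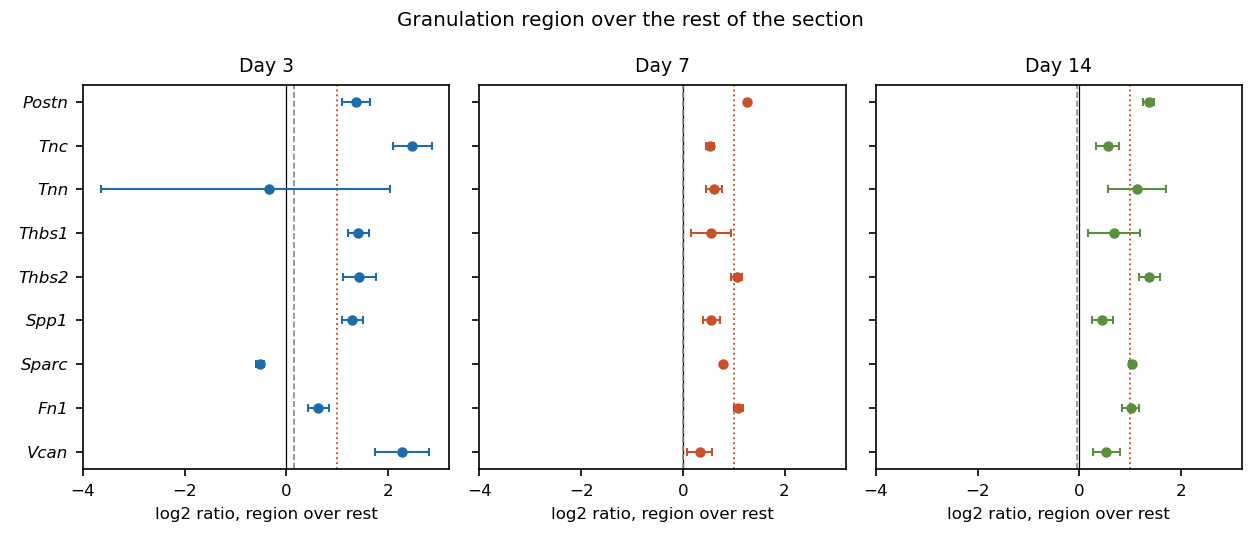
Log2 ratio of CPM in the granulation region over the rest of the section for each gene and day, with 95% counting intervals. The dashed line is the median of all genes, the dotted line marks 2-fold, and *Sparc* on Day 3 lies below 0 at -0.52 while *Tnc* reaches 2.47.

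Depth below the surface edge was measured in rows of the spot array, counted from the outermost marked spot of the same columns. The side of the surface was taken from the epidermis list, which lay nearer to it than the muscle list on every day (mean depth 2.0, 4.96 and 3.87 rows against 8.11, 7.54 and 8.12). The marked edge need not be the skin surface. Unmarked spots on the surface side had the epidermis list at 15232, 8302 and 12021 CPM in the order of the days. In the marked spots that list was at 6179, 3333 and 8403 CPM. On Day 3 *Thbs1* and *Spp1* were superficial: *Thbs1* went from 601 CPM in rows 0 to 3 to 377, 259 and 109.6 CPM in rows 4 to 7, 8 to 11 and 12 or more, and *Spp1* from 561 to 495, 285 and 76.2 CPM. *Fn1* and *Postn* were highest one step deeper, in rows 4 to 7, at 624 and 325 CPM. In the Day 7 section the level of *Spp1* instead went up with depth below the marked edge, from 171 to 221, 342 and 417 CPM. *Tnn* on that day was highest in rows 4 to 7 at 413 CPM and at 199.7 and 239.6 CPM in the deeper bands, and *Postn* was at 3284, 4479, 3807 and 2454 CPM. On Day 14 *Fn1* was at 218, 283, 315 and 319 CPM from the surface down, and *Postn* was highest in rows 8 to 11 at 682 CPM.

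Spatial clustering was summarised by Moran's I, which is near 0 when neighbouring spots are unrelated and approaches 1 when they are alike. On Day 3, 8 of 9 members lay above the median of all genes with at least 100 UMIs (0.10), and *Tnn*, with 9 UMIs, at 0.08, did not. On Day 7 and Day 14 all 9 lay above the median (0.04 on both days). *Sparc* was the most clustered member on each day, at 0.53, 0.57 and 0.45, and ranked 8 of 3083 genes on Day 3 and 10 of 6705 on Day 7. *Postn* followed on Day 7 and Day 14, at 0.46 and 0.34. *Spp1* was at 0.38 on Day 3, 0.34 on Day 7 and 0.16 on Day 14, and *Fn1* at 0.28, 0.29 and 0.11. *Thbs1* was clustered on Day 3 (0.30) and close to the median on Day 7 (0.04) and Day 14 (0.05), when few UMIs were left. Moran's I depends on how many UMIs a gene has, and after thinning to 1000 UMIs 8, 8 and 9 members lay above the median in the order of the days. *Postn* was then at 0.12, 0.22 and 0.14 and *Sparc* at 0.34, 0.35 and 0.23. After thinning *Spp1* was at 0.17, 0.05 and 0.02 and *Fn1* at 0.08, 0.10 and 0.04. *Tnc* on Day 7 was at 0.03 after thinning, and *Vcan* on that day at -0.02 lay below the median of all genes (0.0015).

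Overlap was examined for the 10 pairs of *Postn*, *Tnc*, *Tnn*, *Spp1* and *Fn1* in the thinned spots. More shared spots than the product of the shares of both genes were found for 7 pairs on Day 3, 8 on Day 7 and 9 on Day 14, against 49.6%, 47.5% and 49.2% of all pairs of genes found in at least 20 thinned spots. Without *Tnn*, which was in 1 thinned spot on Day 3, the numbers were 6, 5 and 5 of 6 pairs. On Day 7 co-occurrence was the rule because most spots had *Postn*: 283 spots held *Postn* and *Tnc*, which is 63.3% of the *Postn* spots and 86.3% of the *Tnc* spots, close to the 279 that the product gives. Spots with 3 or more of the 5 genes made up 32.4% (3 genes), 15.8% (4 genes) and 1.14% (5 genes) on that day. *Tnn* and *Spp1* were the pair that met least, in 20 spots (16.0% of *Tnn* spots, 19.2% of *Spp1* spots) where the product gives 24.8. Their mean depths on Day 7 were 5.76 rows for *Tnn* and 7.78 rows for *Spp1*. Over the 539 Day 7 spots with at least 500 UMIs, however, the levels of *Tnn* and *Spp1* correlated weakly and positively (Pearson's r 0.18).

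Before and after that peak the genes shared fewer spots. On Day 3 *Tnc* and *Spp1* met in 20 spots, 47.6% of the *Tnc* spots and 16.9% of the *Spp1* spots, 1.72 times the product. *Postn* and *Tnc* met in 9 spots (12.5% and 21.4%), 1.27 times the product. *Tnn* was in 1 thinned spot on that day, so its pairs say nothing. On Day 14 *Postn* and *Tnc* met in 50 spots, 19.7% of the *Postn* spots and 52.1% of the *Tnc* spots (1.39 times), and *Tnc* and *Tnn* in 8 spots, 8.33% of the *Tnc* spots and 33.3% of the *Tnn* spots (2.36 times). *Spp1* and *Fn1* were the pair below the product on Day 14, with 29 spots against 29.9.

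Across spots with at least 500 UMIs, collagen genes were the nearest companions of most members on Day 7. The companions were picked by their Day 7 values, and each had a lower value on Day 3 and on Day 14. The correlations below are Pearson's r of log1p UMIs per 10000 over the 520, 539 and 689 such spots of the 3 days, whose points share a section, the total that divides them and free RNA, and no test is attached. The 3 genes most like *Postn* on Day 7 were *Col1a1* (0.69), *Col1a2* (0.67) and *Sparc* (0.66), and the same genes were at 0.34, 0.35 and 0.32 on Day 3 and at 0.51, 0.49 and 0.49 on Day 14. *Tnc* had *Col1a2* (0.50), *Col1a1* (0.50) and *Postn* (0.495), which were at 0.18, 0.20 and 0.21 on Day 3 and 0.31, 0.36 and 0.29 on Day 14. *Thbs2* had *Col1a2* (0.58), *Sparc* (0.56) and *Col1a1* (0.53). *Sparc* itself had *Col1a1* (0.81), *Col1a2* (0.78) and *Col3a1* (0.78), and stayed at 0.60 or more with them on the other days. *Fn1* had *Sparc* (0.545), *Col3a1* (0.53) and *Col1a2* (0.52), and *Vcan* had *Col1a2* (0.35), *Col1a1* (0.33) and *Sparc* (0.32). *Spp1* had *Col1a1* (0.41), *Postn* (0.37) and *Col6a3* (0.37), which were at 0.36, 0.13 and 0.07 on Day 3 and 0.32, 0.16 and 0.16 on Day 14. *Tnn* had *Csrp1* (0.39, but 0.00 on Day 3 and 0.07 on Day 14), *Col1a1* (0.39) and *Col1a2* (0.38). The lowest values were those of *Thbs1*, with *Igfbp7* (0.23), *Spi1* (0.22) and *Tuba1a* (0.22).

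The lists gave the same picture by day. With the fibroblast list, *Postn* correlated at 0.36 on Day 3, 0.72 on Day 7 and 0.53 on Day 14, and *Sparc* at 0.72, 0.84 and 0.79. *Spp1* and *Thbs1* were the members nearest to the neutrophil list on Day 3, at 0.53 and 0.45, against 0.27 and 0.21 with the macrophage list. With the fibroblast list *Spp1* and *Thbs1* were at 0.35 and 0.31 on that day. On Day 7 those values for the neutrophil list were 0.12 and 0.01. All members correlated negatively with the muscle list on all days, from -0.12 to -0.78.

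Spots outside the marked region had the same order of days for *Postn*, *Tnc*, *Tnn*, *Thbs1* and *Fn1* but not for the other 4 members. *Vcan* was highest there on Day 14 (27.0, 50.5 and 56.2 CPM), and *Sparc* (1919, 4094 and 2621 CPM) and *Thbs2* (54.0, 276 and 92.3 CPM) were higher on Day 14 than on Day 3. In these spots *Postn* was at 107, 1399.9 and 307 CPM and *Tnc* at 52.8, 532 and 118 CPM, lower than in the marked spots on each day and with the same Day 7 peak. Outside levels of *Spp1* were 776, 104 and 285 CPM, so that it was 1.70-fold higher outside than inside on Day 3, 0.393-fold on Day 7 and 1.49-fold on Day 14. *Thbs1* was 1.70-fold higher outside on Day 3 (756 CPM) and lower outside on the later days. *Tnn* was 1.3-fold higher outside on Day 14 (30.8 CPM), with a log2 interval from 0.01 to 0.75.

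On Day 3 the unmarked *Spp1* and *Thbs1* lay on the surface side. The 2574 spots on the surface side of the marked region held 1071 of the 1321 outside UMIs of *Spp1* (2541 CPM) and 1056 of the 1288 of *Thbs1* (2505 CPM), whereas the deep side was at 116 and 105 CPM. These surface-side spots were shallow, with a median of 65 UMIs, against 472.5 on the deep side and 1513 in the marked spots. The neutrophil list was at 14987 CPM on that surface side and 417 CPM on the deep side, and the epidermis list at 15232 and 731 CPM. The 7 adjoining outside spots with the most *Spp1*, 4.36 spot distances from the marked region, held 111 UMIs of *Spp1* (7518 CPM), 133 of *Thbs1* (9008 CPM), 2 of *Postn* and 0 of *Tnn*. Their neutrophil list was at 37117 CPM, and the genes with the highest level there over the marked spots were the cytokine genes *Ccl4* (51.0-fold) and *Ccl3* (35.2-fold) and *Egr1* (34.9-fold). These spots, and those of the next paragraph, were chosen after the maps were seen, and the part of neutrophils in the *Spp1* and *Thbs1* of Day 3 was not tested.

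On Day 14 most of the unmarked *Spp1* lay on the deep side (1057 of 1344 UMIs). The highest counts there were in a small patch 9 spot distances from the marked region. Its 7 spots held 404 UMIs of *Spp1* (4834 CPM), 178 of *Postn* (2129.8 CPM), 119 of *Tnc* (1424 CPM), 27 of *Tnn* (323 CPM) and 1716 of *Sparc* (20532 CPM). The levels of periostin and both tenascins there were closer, as ratios, to those of the Day 7 section than to those of the Day 14 section. *Thbs1* had 1 UMI there and *Vcan* 3. The genes with the highest level over the marked spots were *Bglap* (osteocalcin, 153-fold), *Mt3* (99.7-fold), *Ibsp* (90.7-fold), *Bglap2* (73.0-fold) and *Dmp1* (50.2-fold). *Acp5*, an osteoclast enzyme, came next (42.3-fold), and all of these except *Mt3* are genes of bone. Within 5 spot distances of its centre (91 spots) *Spp1* was 9.05-fold, *Tnn* 4.94-fold and *Tnc* 3.97-fold above the marked spots, and over the remaining 4204 outside spots these ratios were 0.90, 1.02 and 0.496. The 91 spots held 592 of the outside *Spp1* UMIs and the remaining 4204 spots held 752. A second group of 7 spots, 12 spot distances from the first, held 139 UMIs of *Spp1* (3129 CPM), 27 of *Tnn* (608 CPM), 131 of *Postn* (2949 CPM) and 36 of *Ibsp*.

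RNA of the same kind was present in the marked Day 14 spots, where *Ibsp* had 219 UMIs against 14 on Day 7 and 0 on Day 3. There were 1.19 UMIs of *Spp1* and 0.0803 of *Tnn* for each UMI of *Ibsp* within 5 spot distances of the patch's centre, and 4.02 and 0.498 in the marked spots. How much of the *Spp1* or *Tnn* counted in the Day 14 section came from outside it was not tested. On Day 7 the outside group with the most *Spp1* had 27 of its UMIs (805 CPM) and 0 of *Tnn*.

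**Figure D5:**
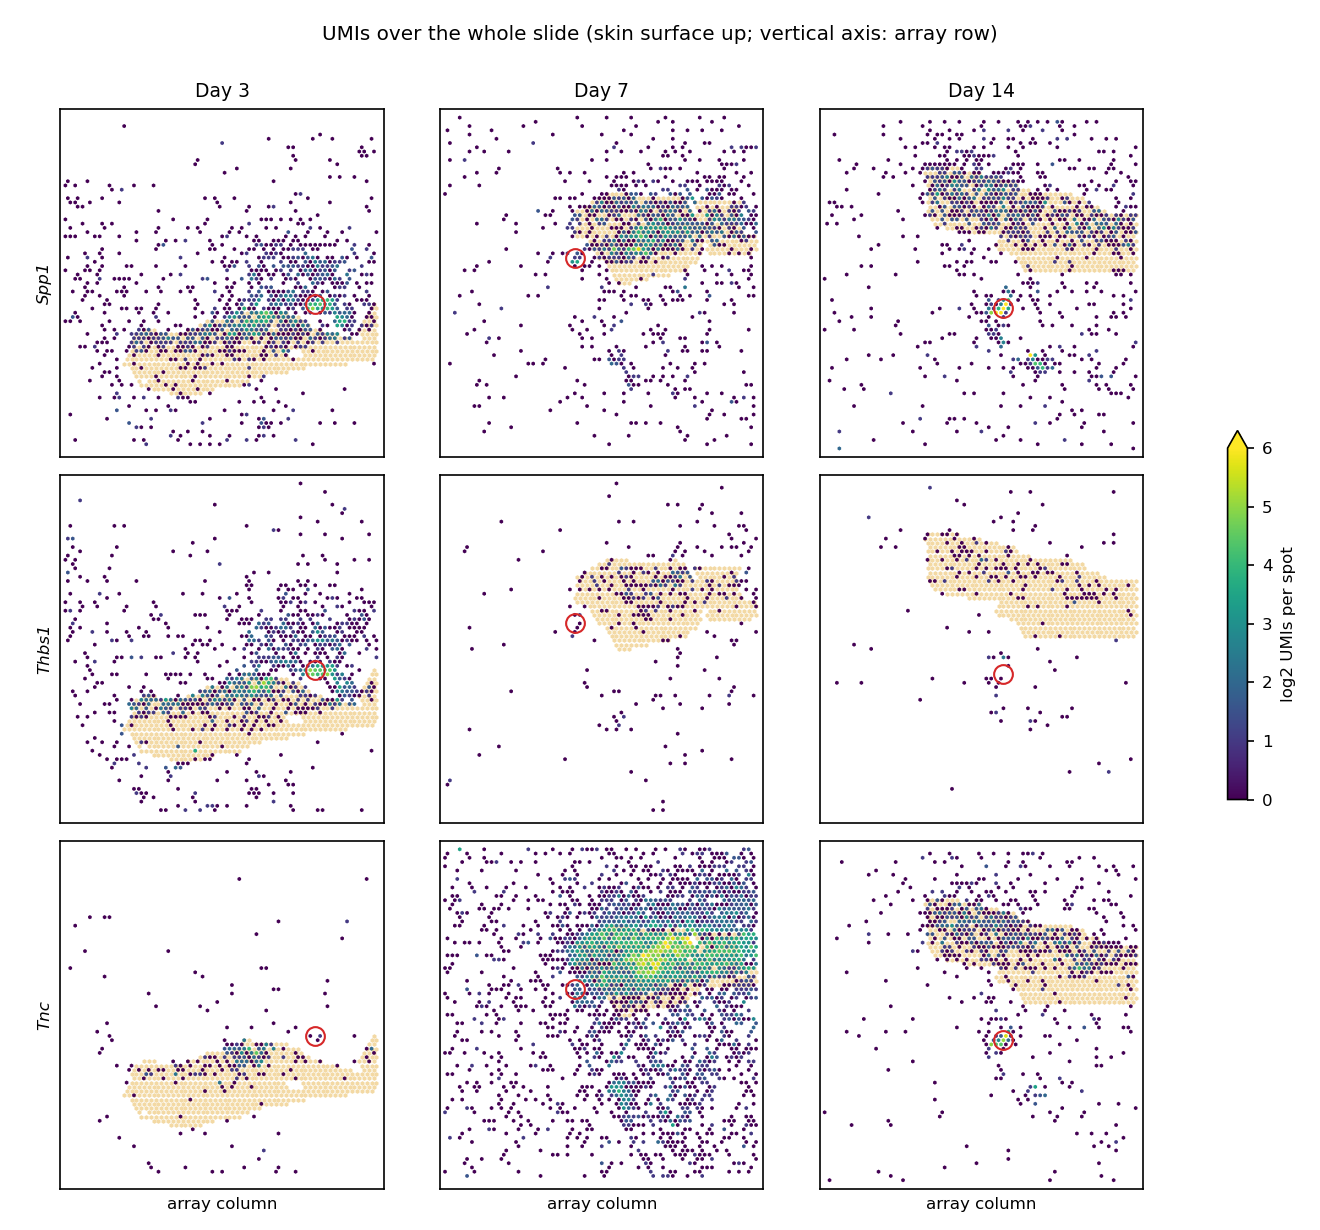
UMIs of *Spp1*, *Thbs1* and *Tnc* per spot over the whole slide, on a log2 colour scale, with the marked region shaded, the skin surface up, and a red circle at the 7 outside spots with the most *Spp1*. *Spp1* and *Thbs1* extend above the marked region on Day 3. On Day 14 *Spp1* and *Tnc* stand out in a patch below it, with further UMIs spread over the slide.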

How the data were processed

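RNA of 3 mouse skin wound sections, 1 each on Day 3, Day 7 and Day 14, was captured on slides of barcoded spots. The deposited values were raw UMI counts per gene and spot, made by the authors with Space Ranger 1.3.0 on mm10 (per the submitters' processing notes). For the annotation version, none was given in the sources used here. Capture reads the 3′ end of transcripts, so levels were compared within a gene and not between genes.

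The genes and gene lists were chosen with earlier results of these data known. Marked spots were summed to CPM. A gene was counted as changed at 2-fold, given 50 or more UMIs in the sections compared. Intervals (95%) were exact Poisson for levels, conditional binomial for ratios and Clopper-Pearson for shares, and cover counting error only. Regions came from k-means with 5 centres on 20 principal components of 2000 variable genes. Moran's I and region contrasts used genes with at least 100 UMIs in the section. As 1 spot may cover several cells, no doublet caller was run, and no deconvolution was used here. Named genes were the members, the 2 highest and 2 lowest relatives and receptors for Day 7 over Day 3, the 3 genes most correlated with each member on Day 7, and the 3 leading genes of each region. Exceptions are stated where they occur, and 1 leading gene is not reported here.

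The alternatives were the mean of spot CPM, edgeR and DESeq2 scaling factors, other spot sets, other gene minimums, 4 or 6 regions, Ward clustering, other thinning depths, at least 2 UMIs per spot, and ranks for Moran's I. The scripts were tested on simulated data. Tools were Python 3.11.15, numpy 2.4.6, pandas 2.3.3, scipy 1.17.1, scikit-learn 1.9.0, matplotlib 3.10.9, R 4.3.3, edgeR 4.0.16 and DESeq2 1.42.0. Gene positions were from GENCODE M21 and promoter sequences from RefSeq (GRCm38.p6).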

Additional observations from a re-analysis of the deposited data

Results flagged for a closer look

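*Spp1* differed in direction between days when unmarked spots were set against marked spots: its log2 ratios were 0.76, -1.35 and 0.58 in the order of the days. For *Thbs1* they were 0.76, -1.15 and -0.72, with *Tnn* at -1.16 on Day 7 and 0.38 on Day 14. *Sparc* was lower in the granulation region than in the rest on Day 3 (log2 ratio -0.52) and higher on Day 7 (0.79) and Day 14 (1.03). Each of these was picked out because the intervals lay on opposite sides of 0, and with 1 section a day the difference between days was not tested.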

How the results depend on the processing

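Each day was 1 section, so the day, the animal and the library cannot be told apart, and the intervals hold counting error only. No paired analysis was possible because each day had 1 section. Of the counts over members, 94 alternative values stayed within 1.5 times the reported one and 11 did not. With the mean of spot CPM, with all spots of the slide, and with the fibroblast list as the denominator (chosen after seeing the data), 2 members in place of 1, *Spp1* besides *Thbs1*, were at least 2-fold lower on Day 7 than on Day 3 and 1 in place of 0, *Vcan*, was highest on Day 14 (its log2 ratio of Day 14 over Day 7 was 0.05, 0.08 and 0.82). *Thbs2* for Day 14 over Day 3 was then at 0.70, 0.16 and 0.40. With the fibroblast denominator, 1 member in place of 2 was at least 2-fold lower on Day 14 than on Day 3. The log2 ratio turned for *Sparc* (Day 14 over Day 3) to 0.018 with the mean of spot CPM, for *Spp1* (Day 14 over Day 7) to 0.50 with all spots and 0.47 with the fibroblast denominator, and for *Thbs1* (Day 14 over Day 7) to 0.25 with the latter. On Day 3, 4 regions gave 3 members in place of 6 at least 2-fold higher in the granulation region, with *Postn* at -0.30, *Tnc* at -0.58 and *Thbs2* at -0.67. Pairs above the product numbered 4 in place of 7 on Day 3 when thinned to 500 UMIs, and 3 in place of 9 on Day 14 when at least 2 UMIs were asked for. With genes of at least 500 UMIs, 4 members in place of 8 lay above the median Moran's I on Day 3, since fewer members were counted. For the other changes the cause was not tested.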
